A study of Mus musculus with 18 samples.

Results

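Ribosomal protein genes were followed through 6 days of Esrrb knockdown in mouse embryonic stem cells, with the proteins of the cytosolic ribosome and those of the mitochondrial ribosome taken as separate classes. The members were found by name: Rpl or Rps with a number, Rplp0 to Rplp2 and Rpsa for the cytosolic class, and Mrpl or Mrps with a number for the mitochondrial class. The array table held 132 such target names out of 34325, of which 58 were cytosolic and 74 mitochondrial. A gene was kept when 1 of its probes had a detection score over 0.95 on all 3 arrays of at least 1 group. This left 53 cytosolic and 68 mitochondrial genes, 121 of the 14521 genes tested. The 11 names that were not detected were Rpl17, Rpl18, Rplp0, Rps13 and Rpsa of the cytosolic class and Mrpl21, Mrpl32, Mrpl41, Mrps14, Mrps22 and Mrps36 of the mitochondrial class. Their probes never exceeded an intensity of 87.4 on any array. Rplp0, the central stalk protein, was measured under its older name Arbp, which the name rule does not take, with levels between 11.05 and 11.71 on the 18 arrays, while the probe named Rplp0 was detected on 0. Of the 121 genes kept, 120 were detected on all 18 arrays, and the exception was Mrpl45, detected on 10, so the filter did little to choose genes by group.

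All cells were of the established E14 line of mouse embryonic stem cells. They grew on gelatin-coated dishes, and the serum-containing medium held LIF, which sustains self-renewal. They were transfected by Lipofectamine with a pSUPER.puro plasmid expressing a short hairpin RNA (shRNA), against Esrrb in the knockdown arm or against GFP in the control arm. Total RNA was taken at days 2, 4 and 6 with 3 biological replicates per arm and day. Biotin-labelled cRNA of each sample was read on an Illumina BeadChip (MouseWG-6 V1.1), which gave 18 arrays in 6 groups of 3. The Esrrb arrays carry a single shRNA label, and loss of Esrrb cannot be told apart from anything else that hairpin does. Each of 3 BeadChips carried all 6 groups, with a given group at a fixed position, and those 2 factors cannot be told apart either. Days 2, 4 and 6 each have control arrays of their own.

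Every cytosolic ribosome is built from ribosomal RNA and one copy of most of its proteins, which are made in the cytoplasm, imported into the nucleolus and assembled there with the help of biogenesis factors. Messages of this class are among the most abundant in a growing cell, and most begin with a run of pyrimidines at the cap, the 5′ terminal oligopyrimidine tract, through which the mTOR pathway governs their translation. The mitochondrial ribosome translates only the few messages of mitochondrial DNA, which encode core subunits of the respiratory chain. Its proteins are encoded in the nucleus, many have bacterial counterparts, and others were added in the mitochondrial lineage. Esrrb is an orphan nuclear receptor of the estrogen-related family that sustains pluripotency in mouse embryonic stem cells, and its relatives Esrra and Esrrg are known as activators of mitochondrial genes.

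RefSeq promoters (assembly GRCm38.p6) matched 96 of the 121 genes, 37 cytosolic and 59 mitochondrial. Some genes have several annotated starts, and the shares below are over 47 cytosolic and 63 mitochondrial promoters. The window ran from 250 bases before to 50 bases after the annotated start, and motifs were searched on both strands. The ETS core CCGGAAG was in 29.8% of cytosolic and 34.9% of mitochondrial promoters, against 8.86% of all 32851 promoters. The YY1 motif AAGATGG was in 17% and 17.5% against 6.34%, and the NRF1 motif GCGCATG in 10.6% and 11.1% against 3.91%. The estrogen-related receptor element AAGGTCA was in 10.6% and 6.35% against 4.72%, which in these classes is 5 and 4 promoters. On the sense strand, CTTTTC or TTTCCG within 20 bases of the start was in 10.6% of cytosolic and 4.76% of mitochondrial promoters, against 2.35% of all. A run of 8 or more C or T within 10 bases of the start was in 27.7% and 7.94%, against 7.43%, a measure chosen after the promoters had been seen. These are matches of letters and not shown binding sites. The set of all promoters covers 27025 genes, detected on these arrays or not, and a comparison with detected genes alone was not made.

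The 120 bases before the annotated start are printed for 5 genes whose values carry the results below. They are Rpl3l, the member that fell furthest in knockdown cells (chr17:24727706-24727825, plus strand, the first of 2 annotated starts), Rpl38 (chr11:114668460-114668579, plus strand), Mrpl34 (chr8:71464806-71464925, plus strand), Mrpl36 (chr13:73330889-73331008, plus strand) and Mrpl53 (chr6:83108988-83109107, plus strand). Capitals mark the ETS core in Rpl38, Mrpl34 and Mrpl53, on either strand, and in Mrpl36 the estrogen-related receptor element followed by the YY1 motif, each on the minus strand. None of the 4 motifs searched over the whole window was in these 120 bases of Rpl3l, and the pyrimidine patterns, which occur there, were searched only near the start.
Rpl3l: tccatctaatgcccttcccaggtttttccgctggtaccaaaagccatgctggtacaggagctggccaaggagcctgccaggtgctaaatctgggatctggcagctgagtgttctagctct
Rpl38: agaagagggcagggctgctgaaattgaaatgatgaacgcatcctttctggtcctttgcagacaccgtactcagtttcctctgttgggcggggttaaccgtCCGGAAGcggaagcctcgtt
Mrpl34: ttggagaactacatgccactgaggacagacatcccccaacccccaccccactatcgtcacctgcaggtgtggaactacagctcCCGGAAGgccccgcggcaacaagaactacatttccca
Mrpl36: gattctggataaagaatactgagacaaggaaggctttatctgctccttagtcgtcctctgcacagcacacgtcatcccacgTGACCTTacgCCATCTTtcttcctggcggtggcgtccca
Mrpl53: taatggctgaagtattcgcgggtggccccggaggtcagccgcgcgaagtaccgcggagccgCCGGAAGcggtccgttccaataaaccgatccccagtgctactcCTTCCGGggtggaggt

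The pyrimidine run at the start is shown by the 30 bases centred on the annotated start, with the longest run of C or T in capitals. The cytosolic examples are Rpl27a (chr7:109519180-109519209), Rpl14 (chr9:120571502-120571531), Rpl38 (chr11:114668565-114668594) and Rplp2 (chr7:141447636-141447665). The mitochondrial examples are Mrpl24 (chr3:87919529-87919558) and Mrpl53 (chr6:83109093-83109122). Rpl3l, the muscle paralogue of Rpl3, is set beside them (chr17:24727811-24727840). All lie on the plus strand, and the genes were picked from those described below, so they add no evidence to the shares above. The cytosolic examples all have long runs and do not stand for their class. In Rps15, Rpl11 and Rpl5 the longest run of this window is 3, 3 and 4 bases. Of the mitochondrial genes, Mrpl12 has a run of 9.
Rpl27a: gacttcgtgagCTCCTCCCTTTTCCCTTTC
Rpl14: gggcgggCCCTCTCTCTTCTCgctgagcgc
Rpl38: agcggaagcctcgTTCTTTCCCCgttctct
Rplp2: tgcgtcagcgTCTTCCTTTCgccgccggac
Mrpl24: ttcctgTTTCCTgtccattttgtagcaacg
Mrpl53: TTCCggggtggaggtaaccatggcggcggc
Rpl3l: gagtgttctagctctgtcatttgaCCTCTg

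The deposited intensity had array medians between 60.4 and 76.9. Each array detected between 37.7% and 42.6% of probes, with a median of 37 beads behind a probe. Levels below are log2 normalised intensities, and changes are differences of these from limma, adjusted over all 14521 genes with a threshold of 0.05. Esrrb itself fell in knockdown cells, with log2 changes of -2.23, -2.72 and -1.87 at days 2, 4 and 6 (adjusted p = 4.37e-11, 3.94e-13 and 3.57e-11). Of 8 embryonic stem cell markers, 7 were measured and 3 fell in knockdown cells at day 6, while Pou5f1, the core pluripotency factor, gave -0.12 (adjusted p = 0.292). All 6 trophectoderm markers and all 4 muscle markers rose in knockdown cells at day 6, with median log2 changes of 2.34 and 3.13. Of all genes, 19.8% rose and 21.1% fell in that comparison. The muscle markers Acta1, Acta2, Tagln and Myl9 were detected, by any of their probes, on 9, 14, 3 and 18 arrays. Tagln was thus kept through 1 group alone, and the direction of a gene kept in this way is partly set by the filter. The muscle count and median above include Tagln. Of 6 fibroblast markers, Lum, Col1a1, Col1a2 and Col3a1 were detected on 0 arrays, and Dcn and Postn, by any of their probes, on 6 and 2. The share of these lineage changes in the ribosomal results was not tested, and in bulk RNA fewer cells of a type and less RNA per cell cannot be told apart.

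The mitochondrial class median was lower at day 6 than at day 2 in both arms. The median cytosolic level was 14.05, 13.95 and 14.06 on the GFP day 2 arrays and 14.11, 14.18 and 14.17 on the GFP day 6 arrays. The median mitochondrial level on the same arrays was 10.82, 10.85 and 10.92 at day 2 and 10.75, 10.71 and 10.68 at day 6. All 3 mitochondrial medians at day 6 lay below all 3 at day 2, and all 3 cytosolic medians lay above. In Esrrb shRNA cells the mitochondrial median was 10.92, 10.99 and 10.90 at day 2 and 10.79, 10.72 and 10.72 at day 6, again without overlap. The cytosolic median there was 13.98, 14.16 and 14.00 at day 2 and 14.03, 14.21 and 14.11 at day 6, and these overlapped. Day 4 was not a midpoint for the mitochondrial class: the GFP arrays stood at 10.97, 11.01 and 10.97, the highest mean of the 6 groups, and the Esrrb arrays at 10.96, 10.90 and 10.84, below every GFP array of that day. The sign of the cytosolic trend depends on scaling. Under median centring the cytosolic median change in GFP cells from day 2 to day 6 was -0.032 in place of 0.10, and the mitochondrial one -0.37 in place of -0.20. The median of all genes was then -0.081 in place of -0.0045. In GFP cells the cytosolic median was thus above that of all genes under both scalings, and the mitochondrial one below it.

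**Figure D1:**
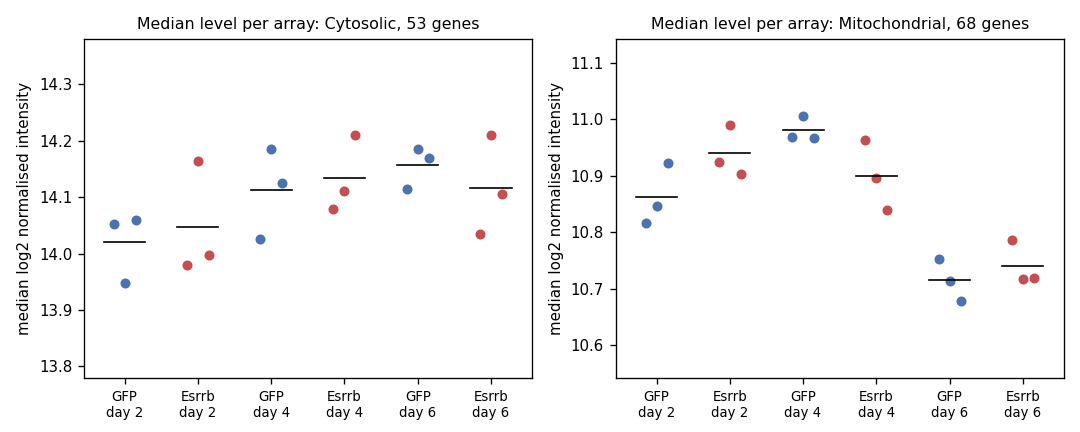
Median log2 normalised intensity of the 53 cytosolic (left) and 68 mitochondrial (right) ribosomal protein genes on each of the 18 arrays, by shRNA and day. Points are arrays, the bar is the mean of the 3 arrays of a group, and both vertical axes span the same range. The mitochondrial medians of day 6 lie between 10.68 and 10.79, below those of the other days.

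The first comparison asked how each class differed between knockdown and control cells on each day. At day 2, 2 cytosolic and 3 mitochondrial genes rose and 0 fell, 3.77% and 4.41% of their classes against 12.1% of all genes called (6.59% rose and 5.54% fell). At day 4, 4 cytosolic genes rose and 1 fell, while 1 mitochondrial gene rose and 10 fell, with 23.4% of all genes called (12.3% rose and 11.1% fell). The 10 mitochondrial falls make 14.7% of that class against 11.1% of all genes falling, a share near the background, although 52 of the 68 mitochondrial genes had a change below 0 (class median -0.11, all genes -0.0023). Without GFP day 4 replicate 3 the mitochondrial calls at day 4 numbered 4, all falls, without Esrrb day 4 replicate 1 they numbered 6, and without GFP day 4 replicate 2 they numbered 7. At day 6, 7 cytosolic genes rose and 7 fell, and 5 mitochondrial genes rose and 12 fell. These are 26.4% and 25% of the classes against 41% of all genes called (19.8% rose and 21.1% fell). Neither class was called more often than the genes at large on any day. The mitochondrial falls at day 6 were 17.6% of the class against 21.1% of all genes. Their excess over rises turned on the scaling, with 8 rises and 8 falls under median centring and 9 rises and 18 falls without background correction.

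**Figure D2:**
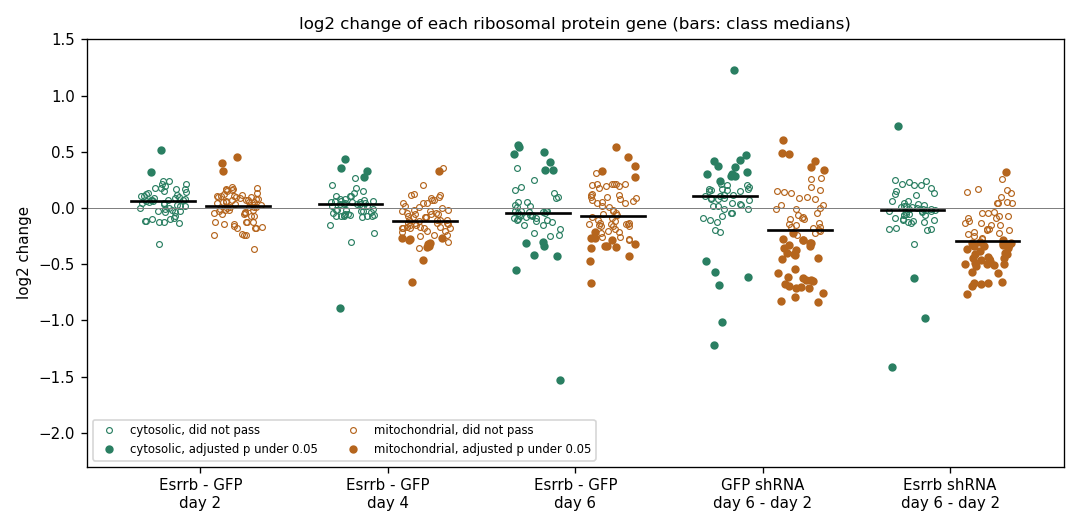
log2 change of each ribosomal protein gene in 5 comparisons: Esrrb shRNA minus GFP shRNA at days 2, 4 and 6, and day 6 minus day 2 within each arm. Each point is a gene, filled where the adjusted p was under 0.05, and the bar is the class median. The mitochondrial medians of the time courses, -0.20 and -0.29, lie furthest from 0, and the lowest cytosolic point is Rpl3l.

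Among cytosolic members, Rpl3l changed most. It encodes a paralogue of Rpl3, the large-subunit protein next to the peptidyl transferase centre, and in mice is known as a protein of heart and skeletal muscle (gene on chromosome 17). At day 2 its level was 8.002, 8.24 and 8.13 in GFP cells and 8.10, 7.99 and 7.998 in Esrrb shRNA cells. At day 4 it was 8.57, 8.48 and 8.53 against 7.71, 7.64 and 7.57, and at day 6 8.05, 8.09 and 8.29 against 6.36, 6.70 and 6.77. The groups overlapped at day 2 and lay apart at days 4 and 6. The log2 change was -0.093 at day 2, -0.89 at day 4 (SE 0.11, adjusted p = 2.37e-06) and -1.53 at day 6 (SE 0.11, adjusted p = 5.47e-10). In Esrrb shRNA cells it fell between day 2 and day 6 (log2 change -1.42, SE 0.11, adjusted p = 2.42e-09). In GFP cells the corresponding change was 0.019 (adjusted p = 0.898), and the difference between the arms was -1.44 (SE 0.15, adjusted p = 1.01e-06). Of the 4 muscle markers (Acta1, Acta2, Tagln and Myl9), 2 rose in knockdown cells at day 2, 3 at day 4 and 4 at day 6, with the limit on detection given above. Of all genes, 6.59%, 12.3% and 19.8% rose on those days. The muscle list is not confined to heart or skeletal muscle, and it includes Tagln, whose direction is partly set by the filter. Rpl3 was not among the names found and is not analysed here.

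Rpl22, a large-subunit protein that is dispensable for bulk translation and needed for T cell development in mice, rose with time in both arms (chromosome 4). The GFP arrays stood at 11.43, 11.52 and 11.63 at day 2, 12.19, 12.24 and 12.21 at day 4 and 12.76, 12.79 and 12.74 at day 6. The Esrrb arrays stood at 11.71, 11.91 and 11.56, then 12.66, 12.58 and 12.48 and then 12.49, 12.51 and 12.37. Knockdown cells were thus above control cells at day 4 and below them at day 6, without overlap on either day. The day 6 minus day 2 change was 1.23 in GFP cells (adjusted p = 2.15e-09) and 0.73 in Esrrb shRNA cells (adjusted p = 4.56e-06). The knockdown changes were 0.36 at day 4 (adjusted p = 0.00857) and -0.31 at day 6 (adjusted p = 0.014). The day 4 call was lost under median centring (adjusted p = 0.0552). The shRNA effect differed between day 6 and day 2 by -0.50 (adjusted p = 0.00927).

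Rpl38, the large-subunit protein whose loss in mouse patterning mutants lowers translation of Hox messages, fell in knockdown cells at day 6 by its brighter probe (chromosome 11). Its level in Esrrb shRNA cells was 12.52, 12.55 and 12.21 at day 2, 12.33, 12.26 and 12.15 at day 4 and 11.07, 11.75 and 11.54 at day 6. In GFP cells it was 11.95, 12.41 and 12.30, then 12.70, 12.51 and 12.44 and then 12.18, 12.00 and 11.85. At day 6 every Esrrb array was below every GFP array (log2 change -0.55, SE 0.15, adjusted p = 0.00656). The day 6 call was lost without the Esrrb day 6 replicate 1 array, the lowest of its group (adjusted p = 0.0599). Over time the main probe gave -0.98 in Esrrb shRNA cells and -0.21 in GFP cells (adjusted p = 4.37e-05 and 0.275). A second, dimmer Rpl38 probe did not separate the arms at day 6 (log2 change 0.018, adjusted p = 0.927). It fell over time in Esrrb shRNA cells (log2 change -1.05, adjusted p = 6.93e-07) and also in GFP cells (log2 change -0.91, adjusted p = 2.54e-06), and its difference between the arms did not pass (log2 change -0.14, adjusted p = 0.584).

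At day 2 the cytosolic genes that rose were Rpl30, a large-subunit protein known in yeast to repress its own message, and Rps24, a small-subunit protein mutated in human Diamond-Blackfan anaemia. Rpl30 stood at 11.79, 11.71 and 12.40 on the GFP arrays and 12.44, 12.55 and 12.44 on the Esrrb arrays (log2 change 0.51, SE 0.14, adjusted p = 0.0204). The GFP arrays were widely spread, and the adjusted p ran from 3.12e-04 to 0.103 when single arrays were left out, with the call lost without GFP day 2 replicate 1 or 2 or Esrrb day 2 replicate 2. Rps24 stood at 10.97, 11.09 and 11.18 against 11.44, 11.46 and 11.30 at day 2 (log2 change 0.32, SE 0.10, adjusted p = 0.0412). At day 6 it stood at 10.89, 10.94 and 11.02 against 11.48, 11.31 and 11.08 (log2 change 0.34, SE 0.10, adjusted p = 0.0103). A second detected Rps24 probe went the other way at day 6 (log2 change -0.55, adjusted p = 9.62e-04), with deposited intensities of 1352.4, 1423.6 and 1509.4 in GFP cells against 972.9, 999.2 and 1156.7 in Esrrb shRNA cells. Rps24 was the 1 cytosolic gene, of 16 with several detected probes, whose probes were called in opposite directions at day 6.

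At day 4 the genes that rose were Rps15a, a small-subunit protein, Rpl22, the acidic stalk protein Rplp2 and the large-subunit protein Rpl27a. Rps15a stood at 7.69, 8.02 and 7.66 against 8.23, 8.18 and 8.28 (log2 change 0.44, SE 0.14, adjusted p = 0.0232) and rose again at day 6 (log2 change 0.54, SE 0.14, adjusted p = 0.00296). Rplp2 stood at 5.84, 5.83 and 5.59 against 6.02, 6.25 and 5.97 (adjusted p = 0.0406), and Rpl27a at 13.24, 13.06 and 13.27 against 13.44, 13.50 and 13.45 (adjusted p = 0.0277). In each of these 3 genes the day 4 arrays of the arms did not overlap. The Rplp2 and Rps15a probes are dim, with mean deposited intensities of 112.5 and 326, against 9792 for Rpl27a. Whether these dim probes read the main transcript was not tested. With single arrays left out, the adjusted p ran from 0.00922 to 0.102 for Rps15a, from 0.0426 to 0.195 for Rplp2 and from 0.033 to 0.152 for Rpl27a. The Rplp2 and Rpl27a calls were also lost under median centring (adjusted p = 0.0689 and 0.125).

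At day 6 the cytosolic class was also read by the brightness of the probe, in bins chosen after seeing the data. Of the 36 cytosolic genes with a mean deposited intensity over 10000, 0 rose and 2 fell in knockdown cells, against 16.9% of the 248 genes of any kind as bright called. The 2 were Rpl23a, which lies at the exit of the peptide tunnel, and Rpl13, another large-subunit protein. Rpl23a stood at 13.58, 13.52 and 13.56 against 12.86, 13.31 and 13.23 (log2 change -0.42, SE 0.12, adjusted p = 0.0088), and Rpl13 at 15.04, 15.12 and 14.93 against 14.45, 14.85 and 14.87 (log2 change -0.31, SE 0.11, adjusted p = 0.0307). Without Esrrb day 6 replicate 1 the adjusted p became 0.0696 and 0.204. Without that array the cytosolic genes called at day 6 numbered 7 in place of 14. The highest probe of an array read 38086 to 50687. In the GFP time course 7 of these 36 genes rose and 0 fell, against 31.5% of genes as bright called in either direction. Saturation of such probes was not tested.

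Of the 7 cytosolic genes with a mean intensity under 400, 5 rose in knockdown cells at day 6, which is 71.4% against 18.6% of all 9549 genes as dim. The same 5 genes (Rps19, Rpl14, Rpl29, Rpl4 and Rps15a) fell in GFP cells between day 2 and day 6, by the same probes. Messages of this class are abundant as a rule, and whether such dim probes read the main transcript of their genes was not tested. With every probe on its own, a dim probe of Rpl37 and 1 of Rpl27a gave -0.60 and -0.39 in the GFP time course (adjusted p = 0.00899 and 0.029). In knockdown cells at day 6 they gave 0.49 and 0.39 (adjusted p = 0.0357 and 0.0379). The bright probes of both genes passed in neither comparison. No other second probe of the class under 400 passed in both. Rps19, the gene most often mutated in human Diamond-Blackfan anaemia, stood at 8.17, 8.04 and 8.04 in GFP cells at day 2 and 6.81, 7.05 and 6.72 at day 6, and at 7.45, 7.24 and 7.39 in Esrrb shRNA cells at day 6. Rpl14, a large-subunit protein, stood at 7.93, 8.06 and 8.10, 7.17, 6.91 and 6.97 and 7.59, 7.61 and 7.54 in the same order. For both genes the GFP arrays of day 6 were the lowest of the 3 groups, without overlap. A second detected Rps19 probe, dimmer still, did not pass in either comparison, with log2 change 0.045, adjusted p = 0.818 for the GFP time course and log2 change 0.27, adjusted p = 0.148 for the knockdown at day 6. The knockdown changes at day 6 were 0.50 for Rps19 (adjusted p = 4.41e-04), 0.56 for Rpl14 (adjusted p = 0.00408), 0.48 for Rpl29 (adjusted p = 9.73e-04) and 0.41 for Rpl4 (adjusted p = 0.0309), the last of these lost when any 1 of the 6 day 6 arrays was left out. The GFP time course gave -1.22, -1.01, -0.61 and -0.47 for the same genes. These 2 comparisons share the GFP day 6 arrays, so their opposite signs are not independent. Rpl3l and Rplp2 are also among these 7 genes. In knockdown cells at day 6 Rpl3l fell, and Rplp2 did not pass (log2 change 0.25, adjusted p = 0.0876). Rps15, a small-subunit protein with a probe of mean intensity 9669, fell at day 6, from 13.43, 13.57 and 13.44 to 13.20, 13.15 and 13.08 (log2 change -0.34, SE 0.085, adjusted p = 0.00299).

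**Figure D3:**
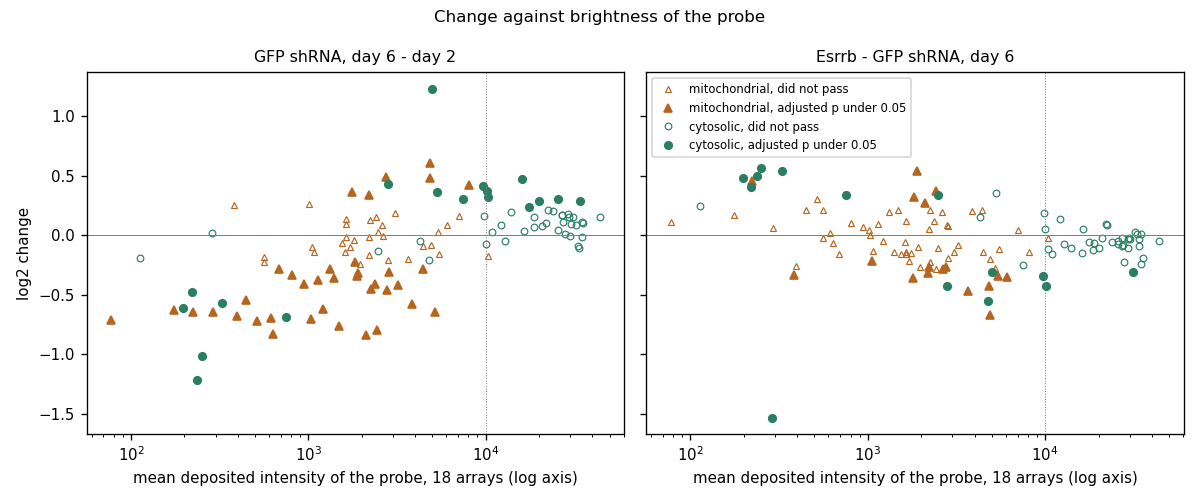
log2 change of each ribosomal protein gene against the mean deposited intensity of its probe over 18 arrays (log axis), for day 6 minus day 2 in GFP shRNA cells (left) and for Esrrb minus GFP shRNA at day 6 (right). Circles are cytosolic and triangles mitochondrial genes, filled where the adjusted p was under 0.05, and the dotted line marks 10000. Among the 7 cytosolic genes under 400, 5 are called below 0 on the left and above 0 on the right.

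Besides Rpl3l, some paralogues and proteins with roles outside the ribosome were read on their own. Rpl5 and Rpl11, which carry the 5S ribosomal RNA and bind the p53 regulator Mdm2 when assembly fails, gave -0.072 and -0.077 in knockdown cells at day 6 (adjusted p = 0.625 and 0.463). Rps27l, a p53-induced paralogue, gave 0.10 and its partner Rps27 -0.12 (adjusted p = 0.468 and 0.416). Rpl10 on the X chromosome gave 0.052, and Rpl39, also on the X chromosome, -0.10 (adjusted p = 0.743 and 0.49). None of these 6 genes passed the test between the arms on any of the 3 days, and Rpl39 rose over time in GFP cells (0.29, adjusted p = 0.0295). Probes of such families can share sequence with pseudogenes, and probe sequences were not used here.

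In the mitochondrial class the day 2 rises were Mrpl30 and Mrpl53 of the large subunit and Mrps24 of the small subunit. Mrpl53 stood at 10.69, 10.86 and 11.09 in GFP cells and 11.21, 11.33 and 11.30 in Esrrb shRNA cells (log2 change 0.40, SE 0.10, adjusted p = 0.0108). Mrpl30 stood at 10.11, 10.65 and 10.56 against 10.88, 10.88 and 10.91 (log2 change 0.45, SE 0.12, adjusted p = 0.0131), and Mrps24 at 12.81, 12.57 and 12.69 against 12.97, 13.14 and 12.95 (log2 change 0.33, SE 0.095, adjusted p = 0.0277). In all 3 the arms lay apart at day 2 and the Esrrb arrays were higher. At day 6 Mrpl53 was at 10.99, 11.00 and 11.04 against 10.77, 10.68 and 10.92, with the Esrrb arrays lower and apart, yet its knockdown change of -0.22 did not pass (adjusted p = 0.0839). Without GFP day 2 replicate 1 the day 2 adjusted p was 0.0634 for Mrpl53 and 0.0763 for Mrpl30. For Mrps24 it ran from 0.0175 to 0.124 with single arrays left out.

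At day 4 the mitochondrial falls were led by Mrpl39, a protein added in the mitochondrial lineage, and Mrpl35, a bacterial L35 counterpart. Mrpl39 stood at 7.04, 7.18 and 7.43 in GFP cells against 6.36, 6.65 and 6.65 in Esrrb shRNA cells (log2 change -0.66, SE 0.13, adjusted p = 8.69e-04). Mrpl35 stood at 8.78, 8.87 and 8.92 against 8.33, 8.30 and 8.54 (log2 change -0.47, SE 0.11, adjusted p = 0.00284). Neither pair of groups overlapped. The other falls among the named genes were Mrpl55 (-0.35), Mrps15 (-0.34), Mrpl4 (-0.32), Mrpl47 (-0.31), Mrpl24 (-0.26) and Mrpl34 (-0.26), with adjusted p between 0.00755 and 0.0428. With single arrays left out the adjusted p reached 0.0521 for Mrpl55, 0.207 for Mrps15 and 0.0509 for Mrpl4. The 1 rise was Mrpl54, at 10.55, 10.63 and 10.47 against 10.94, 10.89 and 10.82 (log2 change 0.33, SE 0.089, adjusted p = 0.00977), which rose again at day 6 (log2 change 0.32, SE 0.089, adjusted p = 0.00616). Its day 4 call was lost without GFP day 4 replicate 3 (adjusted p = 0.0535). Of 23 subunits on a fixed list of proteins added in the mitochondrial lineage 4.35% fell at day 4, and of 44 others 20.5%, against the 11.1% of all genes. The others, Mrpl55 included, were set by not being on that list, and a bacterial counterpart was not shown for each. Read without the name rule, 2 of 24 measured proteins of the list fell. The difference between these kinds was not tested.

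At day 6, Mrpl24, the bacterial L24 counterpart, fell most. Its level was 12.11, 12.08 and 12.07 at day 2, 12.39, 12.53 and 12.54 at day 4 and 12.58, 12.58 and 12.53 at day 6 in GFP cells. In Esrrb shRNA cells it was 11.95, 12.02 and 12.17, then 12.25, 12.20 and 12.22 and then 11.73, 12.02 and 11.93. The groups overlapped at day 2 and lay apart at days 4 and 6, with the control arm higher at day 6 than at day 2 and the knockdown arm overlapping its day 2 range (log2 change -0.67, SE 0.090, adjusted p = 5.33e-06). Its neighbours in size of fall were Mrps5 (-0.47) and Mrpl23 (-0.42), counterparts of bacterial S5 and of L23 at the tunnel exit, then Mrpl47 (-0.36) and Mrpl28 (-0.35), with adjusted p from 8.10e-04 to 0.00904. The Mrps5 call was lost when all detected probes were averaged (adjusted p = 0.105).

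Mrpl16, counterpart of bacterial L16, was the largest mitochondrial rise at day 6, at 10.50, 10.65 and 10.22 in GFP cells against 11.04, 11.09 and 10.87 in Esrrb shRNA cells (log2 change 0.54, SE 0.11, adjusted p = 5.72e-04). Mrpl52, at 6.94, 7.27 and 7.09 against 7.51, 7.62 and 7.53 (log2 change 0.45, SE 0.14, adjusted p = 0.0137), and Mrpl20, at 10.78, 10.68 and 10.72 against 10.85, 11.25 and 11.22 (log2 change 0.38, SE 0.11, adjusted p = 0.00954), also rose. The knockdown arrays were above the control arrays in all 3 genes. Mrpl34 fell at day 4 and rose at day 6 in knockdown cells. Its GFP arrays stood at 11.19, 11.22 and 11.39 at day 4 and 10.40, 10.34 and 10.42 at day 6, and its Esrrb arrays at 11.01, 10.97 and 11.03 and 10.80, 10.63 and 10.56 (day 6 adjusted p = 0.0206). The arms lay apart on both days, with the knockdown arm lower at day 4 and higher at day 6. With single arrays left out, the day 6 adjusted p ran from 0.0155 to 0.102 for Mrpl34, from 0.0115 to 0.0719 for Mrpl52 and from 9.68e-04 to 0.0542 for Mrpl20, so each of these 3 calls was lost for at least 1 array.

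**Figure D4:**
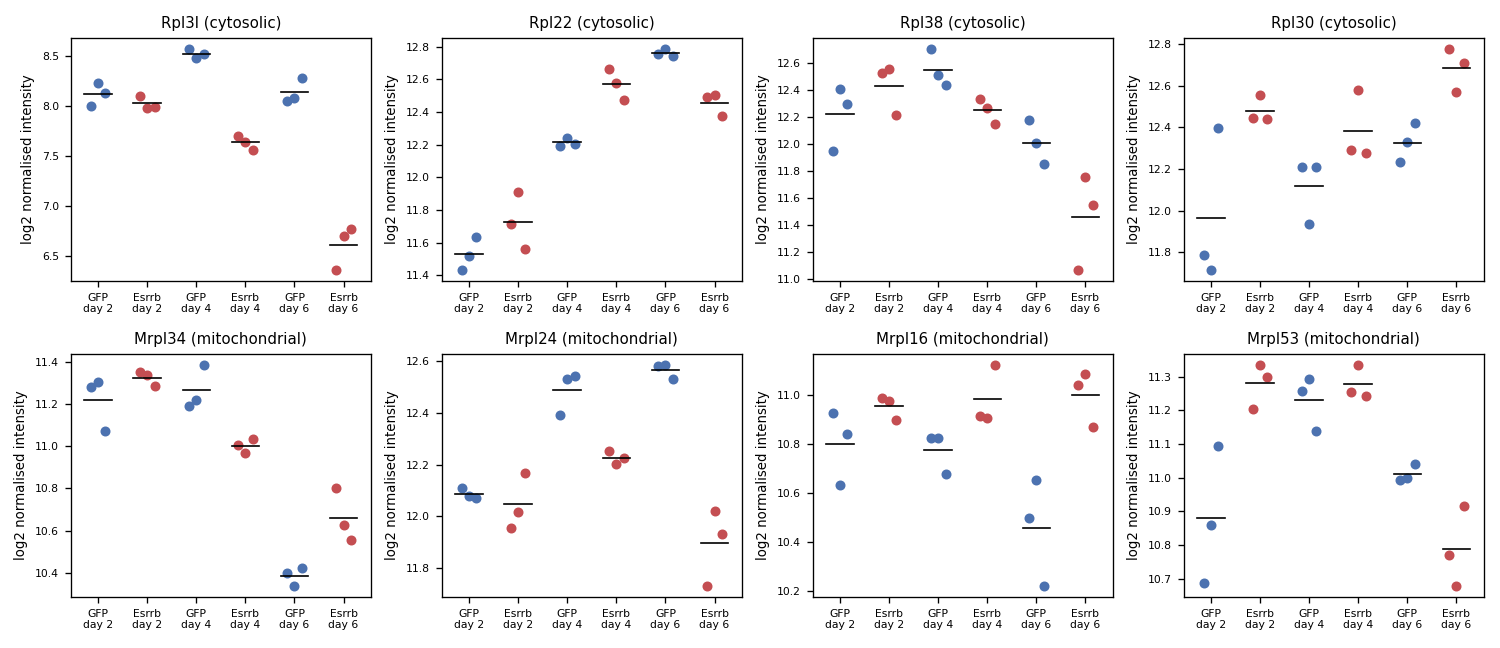
log2 normalised intensity of 8 ribosomal protein genes on each of the 18 arrays, by shRNA and day. Blue points are GFP shRNA arrays, red points Esrrb shRNA arrays, and the bar is the mean of the 3 arrays of a group. Each panel has its own vertical axis. Rpl3l and Mrpl24 separate the arms at days 4 and 6, and Mrpl34 is lower at day 6 than at day 2 in both arms.

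The second comparison followed each arm from day 2 to day 6. In GFP cells 31 mitochondrial genes fell and 6 rose, while 49% of all genes were called (25.9% rose and 23.2% fell). The falls are 45.6% of the class against 23.2% of all genes. In Esrrb shRNA cells 34 fell and 1 rose, and the falls are 50% of the class against 17.6% of all genes, with 37.1% of all genes called (19.5% rose). The medians of the class were -0.20 and -0.29, against -0.0045 and -0.0064 for all genes. No array belongs to both comparisons. In 20 genes the level fell in both arms, which is 64.5% of the falls in GFP cells and 58.8% of those in Esrrb shRNA cells. Over all genes the corresponding shares were 45.3% and 59.6%. No member of either class was called in opposite directions in the arms.

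Several counterparts of bacterial proteins fell in both arms. Mrpl36, the L36 counterpart whose promoter is printed above, stood at 9.44, 9.72 and 9.65 at day 2 and 8.72, 8.82 and 8.78 at day 6 in GFP cells (log2 change -0.83, SE 0.13, adjusted p = 2.82e-05). In Esrrb shRNA cells it stood at 9.31, 9.62 and 9.51 and 8.58, 8.81 and 8.75 (log2 change -0.76, SE 0.13, adjusted p = 1.11e-04). Neither arm overlapped between the days. Mrpl34 gave a log2 change of -0.83 in GFP and -0.66 in Esrrb shRNA cells, and Mrps12, the counterpart of the decoding-site protein S12, gave -0.64 and -0.68. Mrpl35 gave -0.67 and -0.70, Mrpl19 gave -0.61 and -0.67, and Mrps18c, one of 3 S18 counterparts, gave -0.76 and -0.49, all past the threshold. The other S18 counterparts gave -0.14 and -0.31 for Mrps18a, called in Esrrb shRNA cells, and -0.31 and -0.23 for Mrps18b, called in GFP cells.

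The falls were spread over kinds of mitochondrial subunit. In GFP cells 12 of 23 proteins listed as mitochondria-specific and 19 of 44 others fell, and in Esrrb shRNA cells 9 and 25. By subunit, 21 of 42 large-subunit and 10 of 26 small-subunit genes fell in GFP cells, and 19 and 15 in Esrrb shRNA cells. The few rises in GFP cells included Mrpl23 (0.61), Mrpl24 (0.48), Mrpl38 (0.49) and Mrps24 (0.42). The calls of Mrpl24 and Mrps24 were lost under median centring (adjusted p = 0.0579 and 0.153). For Mrpl38 the mean of its probes gave -0.27 in place of a rise. The 1 rise in Esrrb shRNA cells, Mrpl49 (0.32), turned to -0.24 in the same way.

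**Figure D5:**
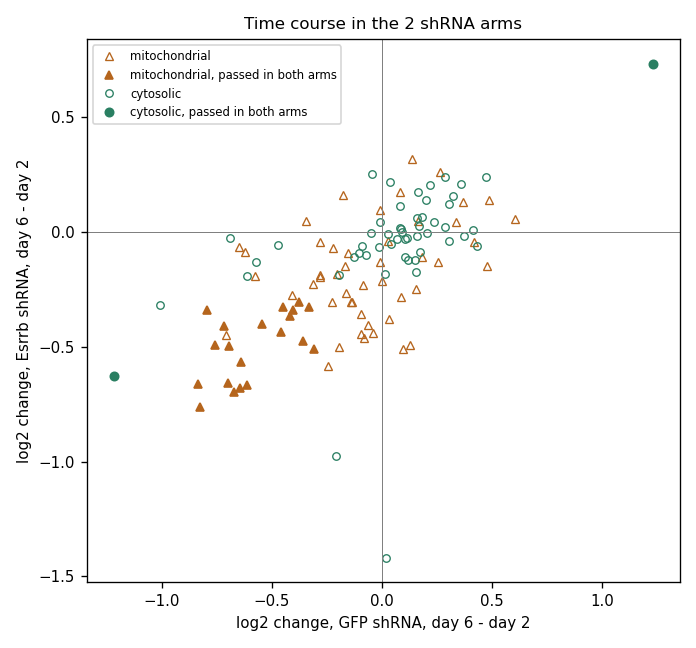
log2 change from day 2 to day 6 in GFP shRNA cells (horizontal) and in Esrrb shRNA cells (vertical) for each ribosomal protein gene. Triangles are mitochondrial and circles cytosolic genes, filled where the gene passed in both arms. The 20 filled triangles lie in the lower left, and the filled circles are Rpl22 (upper right) and Rps19 (lower left).

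In the cytosolic class 12 genes rose and 6 fell in GFP cells from day 2 to day 6, and 1 rose and 3 fell in Esrrb shRNA cells. Called genes made up 34% and 7.55% of the class, against the 49% and 37.1% of all genes given above. Besides Rpl22, the largest rises in GFP cells were Rpl10a, from 13.53, 13.70 and 13.81 to 14.09, 14.23 and 14.14 (log2 change 0.47, SE 0.11, adjusted p = 0.00168), Rpl36 (0.43, adjusted p = 0.022) and Rps15 (0.41, adjusted p = 4.05e-04). A second Rpl10a probe of like brightness gave 0.19 there (adjusted p = 0.183 with every probe on its own). With single arrays left out the adjusted p reached 0.265 for Rpl10a and 0.0875 for Rpl36. The cytosolic rises also turned on the scaling. Under median centring 1 cytosolic gene rose and 11 fell in GFP cells, Rpl10a gave -0.036, and 1 rose and 14 fell in Esrrb shRNA cells. On that scale 41 and 49 mitochondrial genes fell in GFP and Esrrb shRNA cells. Of all 14521 genes, 3158 rose and 4123 fell in GFP cells under median centring, and 2300 rose and 3395 fell in Esrrb shRNA cells.

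The third comparison asked whether the shRNA effect differed between day 6 and day 2, that is, whether the arms changed unequally. In each direction 4 cytosolic genes passed, and 4 mitochondrial genes were higher and 8 lower, 15.1% and 17.6% of the classes against 25.2% of all genes called (11.3% higher and 13.9% lower). The cytosolic genes were Rpl14 (0.69), Rpl21 (0.66), Rps19 (0.59) and Rpl29 (0.42) on one side and Rpl3l, Rpl38 (-0.77), Rpl22 and Rps15 (-0.41) on the other. Of other detected probes, the second Rps19 probe gave log2 change 0.075, adjusted p = 0.828, and those of Rpl21 gave log2 change 0.28, adjusted p = 0.132 and log2 change -0.23, adjusted p = 0.264, so these differences rest on 1 probe each. Mrpl24 (-0.63, adjusted p = 0.00115) and Mrpl53 (-0.62, adjusted p = 0.00293) led the mitochondrial genes with a lower effect at day 6, followed by Mrpl30 (-0.61) and Mrpl23 (-0.55). Those with a higher effect were Mrpl52 (0.58), Mrpl39 (0.54), Mrpl20 (0.45) and Mrpl12 (0.39), the stalk protein that also binds mitochondrial RNA polymerase.

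Genes that serve the ribosomes were read from lists of their own. Of 70 ribosome biogenesis genes 57 were measured, and 26 rose and 0 fell in knockdown cells at day 6, with a median log2 change of 0.27, where 19.8% of all genes rose and 21.1% fell. Nucleolin, encoded by Ncl, stood at 9.502, 9.57 and 9.35 in GFP cells against 11.08, 10.71 and 10.64 in Esrrb shRNA cells at day 6 (log2 change 1.34, SE 0.12, adjusted p = 1.94e-08), without overlap. Pes1, a large-subunit assembly factor, gave 1.13, Polr1b, a subunit of RNA polymerase I, 0.82, and Rpf2, which brings in the 5S particle, 0.78. Over time 38 of the 57 fell and 1 rose in GFP cells, and 18 fell and 1 rose in Esrrb shRNA cells, against falls of 23.2% and 17.6% of all genes. The rises in knockdown cells at day 6 and the falls in GFP cells share the GFP day 6 arrays, so they are not independent. The difference between the arms passed for 13 of the 57, all higher in the knockdown arm, as did 11.3% of all genes in that direction. Myc, a known activator of these genes, fell from 6.43, 6.91 and 6.39 to 4.89, 4.59 and 5.02 in GFP cells. It was higher in knockdown cells at day 6 (log2 change 0.69, SE 0.18, adjusted p = 0.00464). These 2 Myc changes share the GFP day 6 arrays, and Myc was detected on 16 of the 18 arrays. Any part of Myc in the biogenesis results was not tested, and Mycn was detected on 0 arrays.

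Of 46 cytosolic translation factors, 42 were measured, and 5 rose and 7 fell in knockdown cells at day 6, a smaller share than the 41% of all genes called. The falls included Eif4a2, a paralogue of Eif4a1, the RNA helicase of translation initiation (levels of 13.09, 12.94 and 13.04 in GFP against 12.09, 12.01 and 11.97 in Esrrb shRNA cells, adjusted p = 1.06e-08), Eif2s2, the beta subunit of the initiation factor that brings the initiator tRNA (-0.61), Eif2b3 of its exchange factor (-0.54) and Naca of the nascent chain complex (-0.71). Of 47 genes of mitochondrial translation, transcription and ribosome assembly, 39 were measured, and 3 rose and 11 fell at day 6, against the same 41% of all genes called and 21.1% falling. Nsun4, a methyltransferase of mitochondrial ribosome assembly, gave -0.59 and the GTPase Mtg1 -0.54, while the tryptophanyl synthetase Wars2 gave 0.47. From day 2 to day 6, 12 of the 39 fell in GFP cells and 16 in Esrrb shRNA cells, against 23.2% and 17.6% of all genes. Among 4 measured mitochondrial ribosomal proteins with other names, Dap3 of the small subunit fell in knockdown cells at day 4 and day 6 (-0.35 and -0.52), and among 7 cytosolic ones, Arbp (Rplp0), Fau and Rack1 included, 0 were called on any of the 3 days. The 13 messages of mitochondrial DNA, which the mitochondrial ribosome translates, gave 2 rises and 2 falls in knockdown cells at day 6. In GFP cells 3 of them rose and 1 fell from day 2 to day 6, and in Esrrb shRNA cells 1 rose and 1 fell, where 49% and 37.1% of all genes were called.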

How the data were processed

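Per the file headers, the authors summarised the arrays in BeadStudio 3.2.6 and left them neither normalized nor background-subtracted. The deposited intensity is a mean over the beads of a probe, the deposited bead number (unit: other) counts those beads (range 3 to 107), and the deposited detection score runs from 0 to 1. For arrays, their number limits the precision. A second deposited table could not be matched to the probes by identifier and was not used here.

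In R 4.3.3 with limma 3.58.1, neqc corrected the background by detection p (1 minus the score), with an offset of 16, then applied quantile normalization and log2. Probes detected on all 3 arrays of at least 1 group were kept, which left 19438 of 46643, and 314 control or non-mouse probes were left out. The probe with the highest mean stood for its gene. Names were updated through RefSeq (16079 matched, 6654 through 1 synonym, 11592 kept as given). One model of 6 group means over 18 arrays (lmFit, eBayes) gave two-sided tests with Benjamini-Hochberg adjustment per comparison over 14521 genes. The model was tested on simulated data with independent noise for each array, which cannot bear on the pairing of arrays by BeadChip. The named genes are, per class, up to 5 rises and 5 falls of largest size on each day, called and with no overlap between groups, the 4 largest each way in the time courses and in the difference of effects, fixed paralogue sets, and up to 4 genes per other list. The members and lists were chosen with earlier results of these data known, and the list of mitochondrial DNA messages and the brightness bins after seeing the table.

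Replicate numbers pair arrays by BeadChip, per the file headers. Deviations from the group mean correlated between -0.011 and 0.308 for the 45 pairs that share a number (median 0.126) and between -0.268 and 0.126 for 90 that do not (median -0.0667). The labels name the replicates biological, and say nothing of separate cultures. Alternatives were no background correction, median centring, no or a stricter detection filter (score over 0.99 on all 18 arrays), the mean of detected probes, the replicate block, only the arrays compared, each array left out, and, chosen after seeing the data, every probe on its own. Some items are not reported here.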

Additional observations from a re-analysis of the deposited data

Results flagged for a closer look

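The following members are given because a test of the difference found the Esrrb shRNA effect at day 6 to differ from that at day 2, and the values are that difference on the log2 scale. In the cytosolic class it was 0.69 for Rpl14, 0.66 for Rpl21, 0.59 for Rps19 and 0.42 for Rpl29. It was -1.44 for Rpl3l, -0.77 for Rpl38, -0.50 for Rpl22 and -0.41 for Rps15. In the mitochondrial class it was 0.58 for Mrpl52, 0.54 for Mrpl39, 0.45 for Mrpl20 and 0.39 for Mrpl12, and -0.63 for Mrpl24, -0.62 for Mrpl53, -0.61 for Mrpl30 and -0.55 for Mrpl23. The adjusted p (limma) lay between 1.01e-06 for Rpl3l and 0.0446 for Rpl29, and the calls of Rpl29, Mrpl12, Mrpl20, Mrpl39 and Mrpl52 were each lost in 9 or more of the alternatives run.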

How the results depend on the processing

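The median mitochondrial change over time stayed below 0 in both arms under every setting that gave one, while several counts moved. The cause of each move was not tested. Without background correction, the called mitochondrial genes numbered 27 at day 6 and 22 for the difference of effects, and the cytosolic ones 7 over time in Esrrb shRNA cells. Under median centring the called cytosolic genes were 2 at day 4 and 15 over time in Esrrb shRNA cells (1 rose, 14 fell), and 1 rose and 11 fell in GFP cells. On that scale 3395 of all 14521 genes fell over time in Esrrb shRNA cells and 4123 in GFP cells, while 2300 and 3158 rose. The cytosolic class medians became 0.12 at day 2, -0.035 at day 4, -0.032 and -0.20 over time in GFP and Esrrb shRNA cells, and -0.15 for the difference of effects. The mitochondrial ones became 0.062 at day 2, -0.17 at day 4, and -0.37 and -0.43 over time, when the median of all genes moved to -0.04 at day 4 and to -0.08 and -0.09 over time. At day 6, 8 rose and 8 fell in the mitochondrial class under median centring, in place of 5 and 12, and 8 rose and 6 fell in the cytosolic class. For the difference of effects the same setting gave 3 higher and 6 lower in each class.

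With no filter on detection 1 cytosolic gene was called at day 2 and 3 at day 4. With the mean of detected probes 1 cytosolic and 5 mitochondrial genes were called at day 2, and the mitochondrial median over time in GFP cells was -0.26. With only the arrays compared 0 genes of either class were called at day 2, 3 cytosolic genes at day 4 and 6 mitochondrial genes for the difference of effects. With every probe on its own, 6 mitochondrial probes were called at day 2, and 7 cytosolic and 55 mitochondrial ones over time in Esrrb shRNA cells. The replicate block left 3 cytosolic and 3 mitochondrial genes called at day 2, 5 and 13 at day 4, and 17 and 23 at day 6, and changed no count by over 1.5 times. Rpl10a turned to -0.036 over time in GFP cells under median centring, and with the mean of detected probes Mrpl38 turned to -0.27 there and Mrpl49 to -0.24 in Esrrb shRNA cells. Of the settings of single named genes, 1772 stayed on the same side of the threshold, called or not, 157 lost the call, 5 gained it and 3 reversed.

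Leaving out 1 array gave 0 to 2 called cytosolic genes at day 2 (0 without GFP day 2 replicate 1 or 2 or Esrrb day 2 replicate 2), 2 to 4 at day 4 and 7 to 14 at day 6 (7 without Esrrb replicate 1). For the difference of effects it gave 5 to 9 (5 without Esrrb day 2 replicate 1 or GFP day 6 replicate 2). For the mitochondrial class it gave 1 to 3 at day 2 (1 without GFP replicate 1) and 4 to 9 at day 4 (4 without GFP replicate 3, 6 without Esrrb replicate 1, 7 without GFP replicate 2). For the difference of effects it gave 5 to 12 (5 without GFP day 6 replicate 1, 7 without GFP day 6 replicate 3 or Esrrb day 2 or day 6 replicate 1). At day 4 the cytosolic count was 2 without Esrrb replicate 1 and 3 without GFP replicate 2 or 3 or Esrrb replicate 2 or 3. Class medians over time ran from -0.060 to 0.0060 for the cytosolic class in Esrrb shRNA cells, and for the mitochondrial class from -0.30 to -0.25 there and from -0.23 to -0.15 in GFP cells.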

Other observations

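A second probe of Rpl23, a large-subunit protein, read 57 on the GFP day 4 replicate 3 array and between 1570.1 and 3605.4 on the other 17 arrays. Its log2 change at day 4 was 2.57 (limma, adjusted p = 0.085 with every probe on its own). The main Rpl23 probe read 32271.8 on that array, and its change at day 4 was -0.07.

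The deposited intensities of Mrpl38 moved in opposite directions at its detected probes. The main probe gave log2 change 0.49, adjusted p = 4.59e-04 and the dimmer one log2 change -1.03, adjusted p = 3.05e-07 from day 2 to day 6 in GFP cells (limma, every probe on its own). At day 6 the knockdown changes were log2 change -0.27, adjusted p = 0.0403 and log2 change 0.62, adjusted p = 1.88e-04.

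Dim probes as a whole did not share the direction of the dim cytosolic ones. Of the 9549 genes with a mean deposited intensity under 400, 24.9% rose and 21% fell from day 2 to day 6 in GFP cells, and 18.6% rose and 20.3% fell in knockdown cells at day 6. Of the 6 mitochondrial genes as dim, 5 fell from day 2 to day 6 in GFP cells, and 1 rose and 1 fell in knockdown cells at day 6. Every probe was also read on its own (limma). A dim second probe of Mrpl15 and 1 of Mrpl51 gave -1.78 and -1.07 over time in GFP cells (adjusted p = 4.89e-10 and 4.06e-06). In knockdown cells at day 6 they gave 1.07 and 0.69 (adjusted p = 6.36e-07 and 6.22e-04). The dimmer Mrpl38 probe also passed in both, and no other second mitochondrial probe under 400 did. The main Mrpl15 and Mrpl51 probes did not pass in knockdown cells at day 6 (adjusted p = 0.551 and 0.0916).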
